A study of Mus musculus with 20 samples.

Results

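The effect of dexamethasone (DEX) on bone that was not loaded was examined in the right, unloaded tibiae of 10 mice, 10 of the 20 libraries of the study. The rule took the 5 unloaded DEX libraries, numbered 1 to 5, against the 5 unloaded vehicle libraries, which carry the numbers 1, 2, 4 and 5 and, for the last, a number that no sample label holds and that is written here as unnumbered. All were 3-month-old male C57BL/6J mice with no transgene. The DEX group received 1 mg/kg DEX under the skin on 5 days, and the vehicle group received water. In every animal of both groups the left tibia was loaded along its axis, so the right tibia is an internal control of a limb-loaded animal and not of an untouched one. Tibiae were taken on day 5, at 4 h after the last loading session. Frozen bone tissue was pulverized. The labels name it tibia, and the study speaks of it as cortical bone with its periosteum. Genes of bone, marrow cells, cartilage and muscle were all measured in them, and in such bulk samples fewer cells of a type and less RNA per cell cannot be told apart.

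Glucocorticoids such as DEX bind the glucocorticoid receptor, which moves to the nucleus and raises or lowers the transcription of its target genes. In the skeleton, sustained exposure is known to reduce bone formation by osteoblasts, the cells that lay down type I collagen and the mineral-binding protein osteocalcin, and to impair osteocytes, the cells buried in the matrix. In the marrow, glucocorticoids are known to deplete lymphocyte precursors and to raise the number of neutrophils.

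DEX libraries had lower levels of osteoblast, osteocyte, collagen matrix and B lineage genes and higher levels of neutrophil and acute phase genes. Of 19271 genes tested, 1750 were lower in DEX (9.08% of the genes tested) and 1172 were higher (6.08%), by edgeR's quasi-likelihood test at an adjusted p of 0.05. The median log2 fold change over all genes was 0.02. Scaling by TMM over genes of at least 10 CPM gave a different split, 1394 lower and 1441 higher. At least a 2-fold change was fitted for 516 of the lower and 394 of the higher genes, and the groups of 5 did not overlap for 2082 genes, 10.8% of those tested. Library 4 of the DEX group carries the number of the dataset that the study set aside as an outlier, with no limb named. Without it, 787 of 19738 genes were lower (3.99%) and 564 were higher (2.86%), and 1340 of the 2922 calls were also made there. The count also fell by more than 1.5 times when DEX library 3 was left out (847 lower and 603 higher) or vehicle library 5 (1017 lower and 658 higher).

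Unless another unit is named, signed values given with a gene are log2 fold changes of DEX over vehicle. Among called genes without overlap and with at least 5 CPM (each library's counts scaled to one common total with TMM factors) in the higher group, the 10 largest falls included the osteoblast genes Bglap2 and Bglap (-3.32 and -3.17 on the log2 scale), the B lineage recombinase Rag1 (-2.77), the secreted muscle- and bone-derived peptide gene Ostn (-2.52) and the fibrillar collagen gene Col11a1 (-2.57). Cpz, a carboxypeptidase gene, Cgref1, Prss35, a serine protease gene, Fam129c, which is expressed in B cells, and Fbn2, a fibrillin gene of elastic microfibrils, made up the others at -2.71, -2.69, -2.58, -2.42 and -2.4. The 10 largest rises were led by Cyp2e1, a cytochrome P450 gene (2.9), and Ms4a8a (2.58). Il1r2, the decoy receptor for interleukin-1, took 23.8, 19.1, 26.2, 53.1 and 42.3 CPM in DEX libraries 1 to 5. In vehicle it took 3.52, 5.25, 5.82, 5.58 and 8.28 CPM, so the lowest DEX library lay above the highest vehicle library (log2 fold change 2.52, SE 0.3, adjusted p = 0.0011). The acute phase inhibitor gene Serpina3n (2.19), the protease gene Asprv1 (2.08) and Ifitm6 (2.04) rose as well, as did Lep, Chil3, Mmp8 and Orm1, which are described with their groups. The 11 genes named here that belong to no other group were picked for not overlapping, so leaving out DEX library 4 could not reverse their direction.

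**Figure D1:**
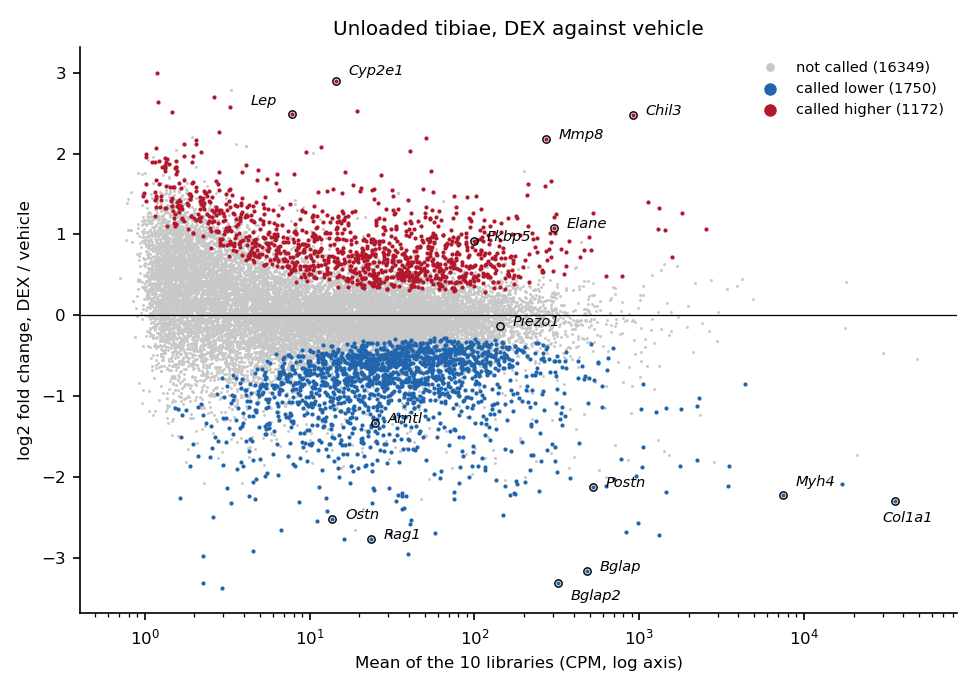
Each point is 1 of 19271 genes, with the mean CPM of the 10 unloaded libraries on a log axis (x) and the log2 fold change of DEX over vehicle (y). Blue points are the 1750 genes called lower, red the 1172 called higher and grey the rest; Bglap and Bglap2 lie at the bottom, Cyp2e1, Lep and Chil3 at the top, and Piezo1 near 0.

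Several measures of the libraries differed between the groups and are given before the gene groups. Totals ran from 7205231 to 11475108 counts. The TMM scaling factors did not overlap, at 1.038 to 1.147 in DEX and 0.8562 to 0.9753 in vehicle, nor did the share of genes in the table whose expected count was not a whole number, at 12.3% to 13.4% and 10.6% to 11.6%. Genes of the mitochondrial genome took 7.38% to 9.09% of counts in DEX and 6.6% to 13.7% in vehicle, which overlapped. The summed level of 15 skeletal muscle genes was 13680, 8525, 7148, 4179 and 51730 CPM in DEX libraries 1 to 5 and 104500, 40060, 71230, 78980 and 19670 CPM in vehicle libraries 1, 2, 4, 5 and unnumbered. DEX libraries 1 to 4 lay below every vehicle library, while DEX library 5 and the unnumbered vehicle library crossed the other group. Those crossing libraries also took the middle of the first principal component, which held 41% of the variance of the 500 most variable genes. Odorant and pheromone receptor genes, which bone is not known to use, summed to 723 to 2928 CPM in DEX and 305 to 1142 CPM in vehicle over 1429 genes. Between 34739 and 38040 genes had a count in DEX libraries and between 30085 and 34259 in vehicle libraries. With the muscle sum as a covariate, an alternative chosen after seeing the data, 303 genes were lower and 148 higher. With the receptor-gene sum as a covariate, 1926 were lower and 1813 higher, and 2120 of the 2922 calls were also made there. The part of soft tissue, of low-level background or of these other measures in the results below was not tested.

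Of 16 osteoblast genes tested, 12 were lower and none was higher, with a median log2 fold change of -1.66 against 0.02 over all genes; 10 were lower without DEX library 4, 12 with the receptor-gene covariate and 7 with the muscle covariate. Bglap, which encodes osteocalcin and lies at chr3:88383501-88384464, minus strand of GRCm38, took 202, 177, 56.8, 26.9 and 23.1 CPM in DEX libraries 1 to 5. It took 504, 916, 770.3, 1100 and 1074 CPM in vehicle libraries 1, 2, 4, 5 and unnumbered. The highest DEX value was below the lowest vehicle value, a 8.99-fold difference (log2 fold change -3.17, SE 0.58, adjusted p = 0.00512). DEX libraries 3 to 5 lay well below DEX libraries 1 and 2.

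Its neighbour Bglap2 (chr3:88377736-88378699, minus strand) showed the same separation, with 12.98 to 133 CPM in DEX and 352 to 1067 CPM in vehicle (log2 fold change -3.32, SE 0.61, adjusted p = 0.00537). These genes and Bglap3 are near-identical copies among which the estimated counts can divide reads, so how the fall is shared among them is uncertain. Alpl, the alkaline phosphatase that frees phosphate for mineral, took 184, 118, 78.2, 74.8 and 57.3 CPM in DEX and 244, 370.5, 367, 323 and 388 CPM in vehicle, without overlap (log2 fold change -1.72, SE 0.28, adjusted p = 0.00319). Phospho1, a phosphatase of matrix vesicles, was 25.4 ± 4.02 CPM (SD, n = 5) in DEX and 68.4 ± 16.1 CPM (SD, n = 5) in vehicle (log2 fold change -1.43, SE 0.17, adjusted p = 0.00116).

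The main structural protein of bone followed. Col1a1, the first chain of type I collagen, took 21610, 20640, 9631, 5554 and 3009 CPM in DEX and 26440, 62940, 69710, 48470 and 90710 CPM in vehicle (log2 fold change -2.3, SE 0.54, adjusted p = 0.0151). The groups did not overlap, and the fall remained without DEX library 4 at -2.14. Col1a2, the partner chain, was lower at a log2 fold change of -2.09, but DEX library 2 at 11610 CPM lay above vehicle library 1 at 11280 CPM, and the call was lost without DEX library 3. Sparc, a collagen- and mineral-binding glycoprotein gene, fell to 632 to 2456 CPM from 3014 to 7293 CPM in vehicle (-1.86).

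Transcription factors that specify osteoblasts were called in part. Sp7, needed for osteoblast formation, was lower at -0.87 (adjusted p = 0.0297; not called without DEX library 3 or 4 or vehicle library 2). Runx2, the master factor of the lineage, took 107 to 159.9 CPM in DEX and 139.5 to 177 CPM in vehicle and was not called (log2 fold change -0.26, SE 0.13, adjusted p = 0.197). Dlx5 (-0.37, adjusted p = 0.162), the bone sialoprotein gene Ibsp (-0.63, adjusted p = 0.128) and the osteopontin gene Spp1 (0.26, adjusted p = 0.364) were not called either. The differences between these genes and the called ones were not tested.

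Of 8 osteocyte genes tested, 7 were lower, with a median of -0.92; 5 were lower without DEX library 4 and 4 with the muscle covariate. Phex, an endopeptidase gene that restrains phosphate loss, took 95.3, 125, 71.2, 53.5 and 53.8 CPM in DEX and 136, 217, 179.6, 174 and 220.3 CPM in vehicle. No library of either group crossed the other (log2 fold change -1.22, SE 0.23, adjusted p = 0.00611). Dmp1, a mineralization protein gene of young osteocytes, was 418 ± 104 CPM (SD, n = 5) in DEX and 769.7 ± 170.1 CPM (SD, n = 5) in vehicle and did not overlap (log2 fold change -0.88, SE 0.2, adjusted p = 0.0115). Pdpn, a marker of the forming osteocyte's dendrites, was lower at -1.01 and Fbln7 at -0.8, both without overlap.

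Sost encodes sclerostin, the Wnt inhibitor that osteocytes secrete. It took 429, 563, 406, 337 and 527 CPM in DEX and 701, 754, 501, 581 and 838 CPM in vehicle, so DEX libraries 2 and 5 lay inside the vehicle range. The fall was at the edge of the threshold (log2 fold change -0.58, SE 0.18, adjusted p = 0.0472). Without DEX library 4 it was not called, with a log2 fold change of -0.48 and an adjusted p of 0.158 (range over the alternatives 0.014 to 0.277). The call was also lost without DEX library 1, 2 or 3 or vehicle library 1, 2, 5 or unnumbered.

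Genes of mechanosensing were tested because the study asked how DEX alters the response to load. Of 10, 6 were lower and none higher (median -0.52; 3 lower without DEX library 2, 3 or 4 or vehicle library 4, 2 with the receptor-gene covariate and 2 with the muscle covariate). Gja1, which encodes the gap junction protein connexin 43 that couples osteocytes, took 246, 314, 188, 179 and 134 CPM in DEX and 348, 469, 603, 416 and 672 CPM in vehicle, without overlap (log2 fold change -1.24, SE 0.24, adjusted p = 0.00626). The transcriptional co-activators Wwtr1 (TAZ, -0.8) and Yap1 (-0.48) and their target Ccn1 (-1.17) were lower without overlap, Yap1 not without DEX library 2, 3 or 4 or vehicle library 4.

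Piezo1, the stretch-activated calcium channel on which the study centred, took 139, 139, 132, 138 and 138 CPM in DEX and 129.7, 128, 186, 127 and 182 CPM in vehicle. The DEX libraries lay between the lower and upper vehicle libraries, and no difference was called (log2 fold change -0.13, SE 0.13, adjusted p = 0.505; adjusted p 0.383 to 0.979 over the alternatives). Its relative Piezo2 was lower in the fit at -1.03 (adjusted p = 0.0434) with overlapping groups, and lost the call without DEX library 4.

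**Figure D2:**
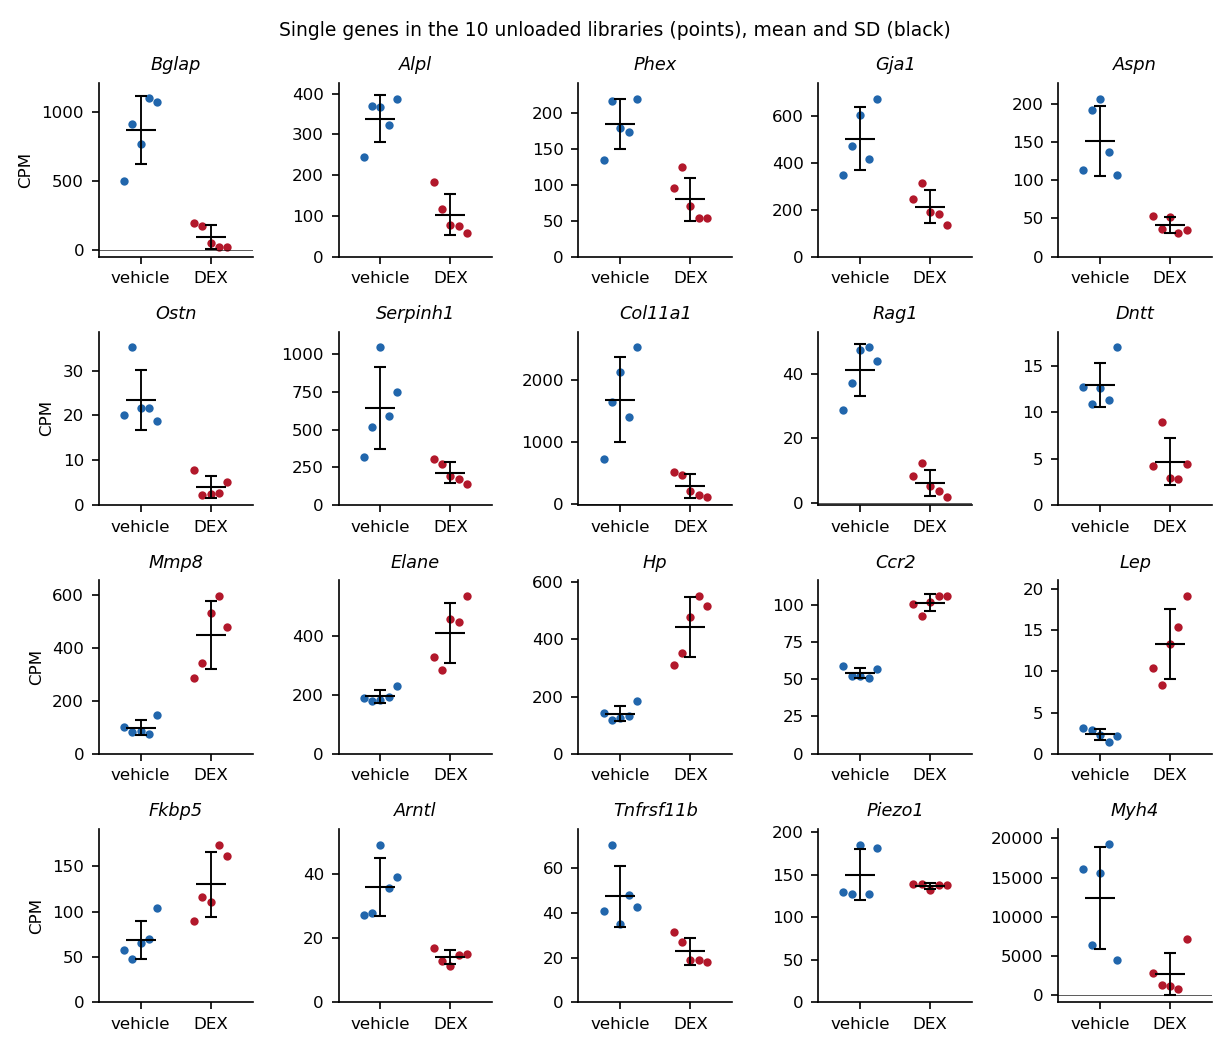
Each panel gives the CPM of 1 gene in the 5 vehicle (blue) and 5 DEX (red) unloaded libraries, with the mean and SD in black. Groups do not overlap for Bglap, Alpl, Phex, Gja1, Aspn, Ostn, Col11a1, Rag1, Mmp8, Elane, Hp, Ccr2, Lep and Arntl, among others, whereas they overlap for Fkbp5, Piezo1 and Myh4.

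The machinery that folds, exports and crosslinks collagen was lower along with collagen itself. Of 17 genes, 15 were lower and none higher (median -1.26), and the groups did not overlap for 11 of them; 12 were lower without DEX library 4 and 13 with the muscle covariate. Serpinh1, the collagen chaperone HSP47, took 306, 271, 194, 170.3 and 141 CPM in DEX and 322, 518, 1046, 588 and 749 CPM in vehicle. The highest DEX library was just below the lowest vehicle library (log2 fold change -1.57, SE 0.3, adjusted p = 0.00595). Pcolce, which speeds the removal of the procollagen C-propeptide (-1.26, adjusted p = 0.00213), the crosslinking enzyme gene Loxl2 (-1.87, adjusted p = 0.00228), the prolyl hydroxylase subunit gene P4ha1 (-1.06, adjusted p = 0.00319) and the chaperone gene Fkbp10 (-1.41, adjusted p = 0.00384) had the lowest adjusted p of the list. Plod1, a lysyl hydroxylase gene, took -0.32 and Tmem38b, an endoplasmic reticulum cation channel gene, took 0.33, and neither was called.

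A list labelled fibrillar and network collagens outside cartilage held 12 genes, among them collagens of other kinds. Of these 12, 11 were lower and none higher (median -1.73). The count lower was 10 without DEX library 4, 6 with the receptor-gene covariate and 7 with the muscle covariate. Col15a1, a basement-membrane-zone collagen, was 27.3 ± 5.67 CPM (SD, n = 5) in DEX and 124 ± 51.1 CPM (SD, n = 5) in vehicle (log2 fold change -2.19, SE 0.26, adjusted p = 0.00116). Col24a1, a fibrillar collagen of forming bone (-1.88), Col13a1 (-1.82) and Col16a1 (-1.69) also separated without overlap. Of 8 small leucine-rich proteoglycans, which bind collagen fibrils, 5 were lower (median -1.14; 4 without DEX library 4 and 2 with the muscle covariate). Lum, lumican, ranged over 82.7 to 172 CPM in DEX and 311 to 445 CPM in vehicle (log2 fold change -1.8, SE 0.19, adjusted p = 0.00103), and Dcn, decorin, over 252 to 382 and 506 to 718 CPM (-1.09).

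Of 13 genes of periosteum and tendon fibroblasts, 8 were lower (median -1.08); 8 were lower without DEX library 4, 8 with the receptor-gene covariate and 3 with the muscle covariate. Fmod, fibromodulin, took 168, 126, 134, 112 and 141 CPM in DEX and 336, 329, 382, 326 and 312 CPM in vehicle. Its spread within each group was small beside the gap between them, and its adjusted p equalled the lowest of all genes (log2 fold change -1.31, SE 0.12, adjusted p = 0.000838). Ostn, the gene for osteocrin, took 7.86, 2.297, 2.59, 2.61 and 5.06 CPM in DEX and 20.1, 35.1, 21.6, 21.7 and 18.8 CPM in vehicle (log2 fold change -2.52, SE 0.32, adjusted p = 0.00147). Aspn, asporin, was 41.6 ± 10.3 CPM (SD, n = 5) in DEX and 151 ± 45.7 CPM (SD, n = 5) in vehicle (-1.87).

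Postn, a periosteal matrix protein gene, took 165 to 253 CPM in DEX. In vehicle 4 libraries took 466.5 to 644 CPM, and library 4 took 2018 CPM (-2.12). Scx, a tendon transcription factor gene, was not called (-1.08, adjusted p = 0.0795).

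Cartilage genes gave a mixed account. Of 18 listed, 13 had enough counts to be tested and 4 of those were lower: Col11a1, Col11a2, Acan and Col2a1; without DEX library 3 or 4, or with the receptor-gene covariate, 1 of 13 was lower, and with the muscle covariate 2. Col11a1 took 516, 459, 203, 136 and 111 CPM in DEX and 719, 1658, 2132, 1400 and 2540 CPM in vehicle (log2 fold change -2.57, SE 0.46, adjusted p = 0.00493). Bone also expresses this gene. Acan, aggrecan, ranged over 21.7 to 52.7 CPM in DEX and 53.4 to 123 CPM in vehicle, the groups almost touching (log2 fold change -1.04, SE 0.26, adjusted p = 0.0205). Sox9, the cartilage transcription factor (0.08), and Col10a1, the collagen of hypertrophic chondrocytes (0.07), were not called.

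Among metalloproteinases and their inhibitors, 4 of 10 were lower: the gelatinase gene Mmp2 (-1.35), the membrane collagenase gene Mmp14 (-0.88) and the inhibitor genes Timp1 (-1.1) and Timp2 (-0.65); 3 of the 10 were lower without DEX library 4, 3 with the receptor-gene covariate and 2 with the muscle covariate. The call of Mmp14 was lost in 8 of the 10 fits that left out 1 library, DEX library 4 among them (adjusted p = 0.0959 (range over the alternatives 0.0111 to 0.515)), and with the receptor-gene covariate its log2 fold change was -0.26 (adjusted p = 0.515).

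Signals that osteoblast-lineage cells send to osteoclasts changed in part. Tnfrsf11b encodes osteoprotegerin, the decoy that blocks RANKL. It took 31.6, 26.9, 18.98, 18.9 and 17.9 CPM in DEX and 40.9, 70.4, 34.8, 47.9 and 42.7 CPM in vehicle, without overlap (log2 fold change -1.05, SE 0.21, adjusted p = 0.00725). Tnfsf11, which encodes RANKL itself, was low in both groups at 2.21 to 4.93 and 1.95 to 5.62 CPM and was not called (log2 fold change -0.18, SE 0.32, adjusted p = 0.743). Its receptor gene Tnfrsf11a took 0.28 (adjusted p = 0.159), and Lgr4, another receptor for RANKL, was lower at a log2 fold change of -0.75.

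Of 15 osteoclast genes, 2 were higher and none lower (median 0.35): Mmp9 (0.97, without overlap), a gelatinase gene that neutrophils also express, and the proton pump subunit gene Tcirg1 (0.51, not called without DEX library 2, 3, 4 or 5 or vehicle library 1, 2 or 5). The defining resorption genes Ctsk (0.12, adjusted p = 0.675) and Acp5 (0.15, adjusted p = 0.584) were not called. With the muscle covariate no gene of the RANKL or osteoclast lists was called.

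In the Wnt pathway, 8 of 20 genes were lower and none higher (median -0.51; 6 lower without DEX library 4, 5 with the receptor-gene covariate and 2 with the muscle covariate). Most of those named are antagonists. Sfrp2, a secreted Wnt-binding protein gene, took 7.01, 3.83, 9.12, 5.53 and 5.98 CPM in DEX and 16.5, 18.1, 28.3, 30.8 and 16.2 CPM in vehicle (log2 fold change -1.81, SE 0.25, adjusted p = 0.00193), and its relative Sfrp4 (-0.97), the inhibitor gene Wif1 (-0.9) and the intracellular inhibitor gene Nkd2 (-0.92) were lower. Sfrp1 (0.18, adjusted p = 0.523) and the ligand gene Wnt16 (-0.42, adjusted p = 0.148) were not called.

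Hes1, a Notch-responsive repressor gene that the study also followed, took 4.84, 7.77, 4.56, 4.696 and 5.61 CPM in DEX and 12.8, 13.4, 8.99, 9.64 and 7.32 CPM in vehicle. DEX library 2 lay above the unnumbered vehicle library, and the other DEX libraries lay below all vehicle libraries (log2 fold change -0.92, SE 0.21, adjusted p = 0.0135). Without DEX library 4 the log2 fold change was -0.85, with an adjusted p of 0.0494 (range over the alternatives 0.00154 to 0.257). In the fit of all 10 libraries it was the 1 gene called of 13 in the Notch pathway, with the receptor gene Notch2 at 0.24 (adjusted p = 0.207). DESeq2 called 2 genes lower, the receptor-gene covariate gave 1 lower and 2 higher, and the muscle covariate gave none.

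Igf1, the growth factor with well-known anabolic action on bone, took 46.9, 56.5, 41.3, 51.96 and 37.9 CPM in DEX and 78.6, 101, 131, 87.99 and 67.6 CPM in vehicle, without overlap (log2 fold change -0.99, SE 0.17, adjusted p = 0.00439). Igfbp5 (-0.53) and Igfbp6 (-0.47), which encode its binding proteins, were lower, and Igf1r, its receptor gene, was higher (0.72, adjusted p = 0.00853). Vdr, the vitamin D receptor gene, was 42.4 ± 7.796 CPM (SD, n = 5) in DEX and 80.04 ± 22.2 CPM (SD, n = 5) in vehicle (log2 fold change -0.92, SE 0.18, adjusted p = 0.00675), and the thyroid hormone receptor gene Thra was lower at a log2 fold change of -0.43; without DEX library 4, 1 of the 6 hormone receptor genes tested was lower. In the TGF-beta and BMP pathway, 4 of 16 genes were lower, among them Tgfb3 (-0.84) and Bmp3 (-0.87), and 2 were higher, the activin subunit gene Inhba (1.02) and Tgfbi (0.77). The count of lower genes in that pathway fell to 1 without DEX library 3 or 4 and to 2 without DEX library 1 or 5 or vehicle library 2, 4 or unnumbered. The calls of Igfbp5, Igfbp6, Thra, Bmp3 and Tgfbi were lost without DEX library 4, while those of Igf1, Igf1r, Vdr, Tgfb3 and Inhba were made in every fit that left out 1 library. With the muscle covariate no gene of the insulin-like growth factor list or of the TGF-beta and BMP list was called, and 1 hormone receptor gene was lower. With the receptor-gene covariate, edgeR called 1 gene lower and 2 higher in each of those 2 lists, and 1 hormone receptor gene lower. Tgfb3 was not called in that edgeR fit (adjusted p = 0.0561).

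**Figure D3:**
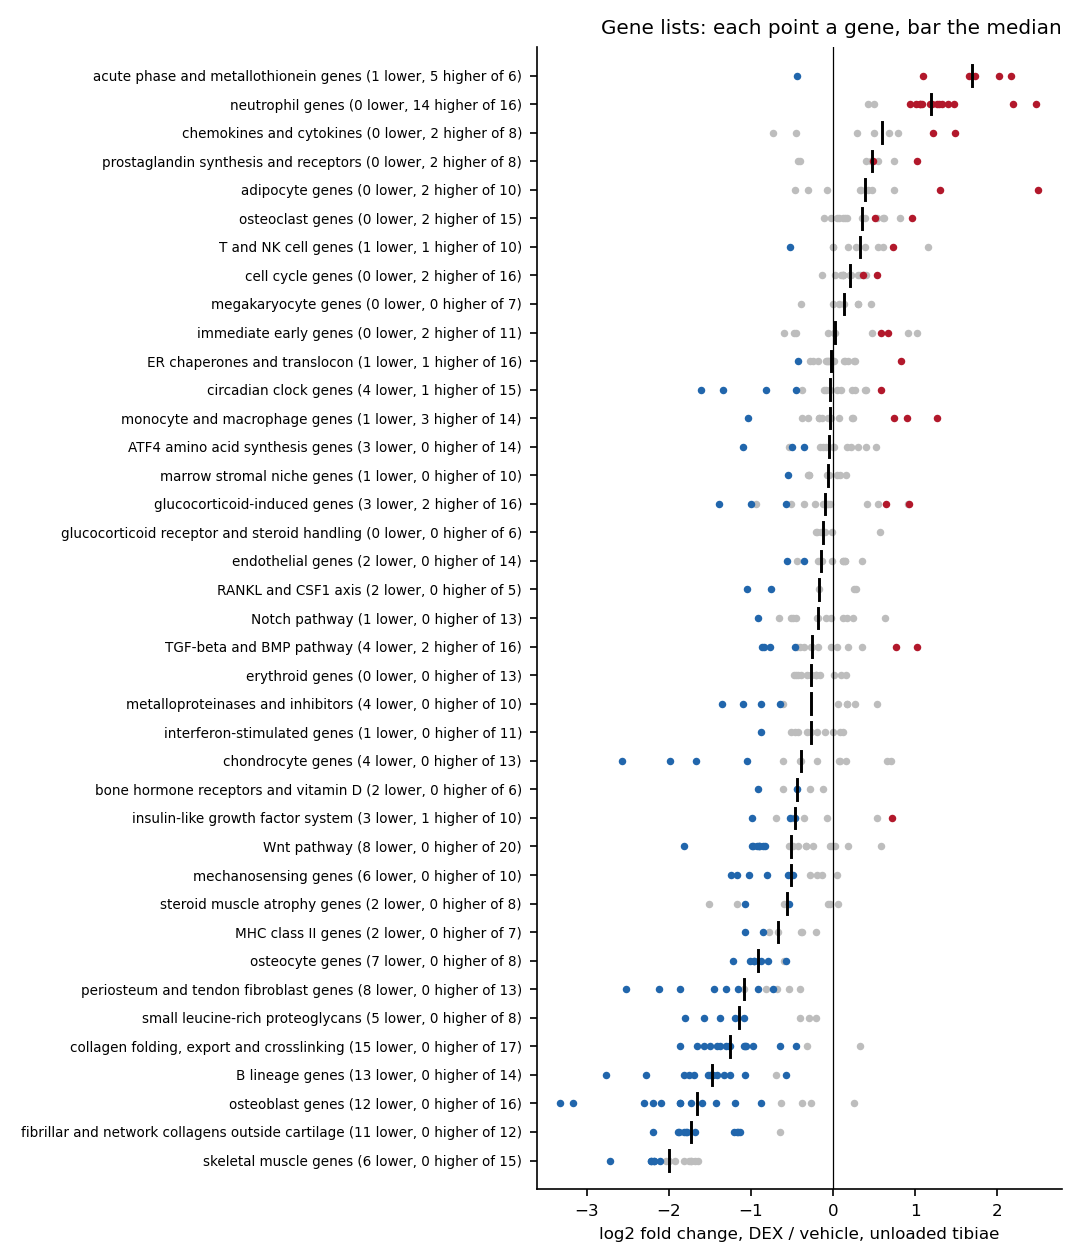
Each row is a gene list drawn up for this comparison, ordered by its median log2 fold change (black bar), and each point is a gene, blue where called lower, red where called higher and grey where not called. The collagen, osteoblast, B lineage and skeletal muscle lists lie to the left and the acute phase and neutrophil lists to the right.

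Of 14 B lineage genes, 13 were lower and none higher, with a median of -1.48; 8 were lower without DEX library 4, 7 without DEX library 3, 8 without vehicle library 5, 9 with the receptor-gene covariate and 2 with the muscle covariate. Rag1, which cuts DNA for antigen receptor assembly in B cell precursors of the marrow, took 8.102, 12.1, 5.17, 3.55 and 1.56 CPM in DEX. In vehicle it took 28.9, 37.3, 47.5, 48.3 and 44.04 CPM, so the groups were far apart (log2 fold change -2.77, SE 0.39, adjusted p = 0.00195). Dntt, which adds bases at the joints of those receptors, took 4.23, 8.97, 2.96, 2.82 and 4.42 CPM in DEX and 12.8, 10.9, 12.7, 11.3 and 16.98 CPM in vehicle (log2 fold change -1.46, SE 0.28, adjusted p = 0.0066). Vpreb3, a gene of B cell precursors (-2.27), and Blnk, the adaptor of B cell receptor signals (-1.25), separated without overlap. Of 19 variable segment genes of the immunoglobulins, a family picked by symbol after its values were seen, edgeR called none (median 0.17), 3 had an unadjusted p under 0.05, and DESeq2 called 1, Iglv1, at a fitted log2 fold change of 1.10 (adjusted p = 0.0438).

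Cd79a, part of the B cell receptor, took 4.602 to 27.1 CPM in DEX and 34.4 to 62.8 CPM in vehicle (log2 fold change -1.69, SE 0.37, adjusted p = 0.011). Ighm, the heavy chain gene of the IgM receptor, overlapped between groups (-1.07, adjusted p = 0.0473), and its call was lost in 8 of the 10 fits that left out 1 library. Vpreb1, a surrogate light chain gene of the pre-B cell receptor, was not called (-0.69, adjusted p = 0.399). Of 7 MHC class II genes, which B cells and macrophages use to present antigen, H2-Ab1 (-1.07) and H2-Eb1 (-0.85) were lower, and neither was called without DEX library 4 or with the muscle covariate. Of 10 T and NK cell genes, Cd4 was lower (-0.52, adjusted p = 0.0491) and the granule gene Nkg7 higher (0.73, adjusted p = 0.0358), and neither was called without DEX library 4 or with the muscle covariate.

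Neutrophil genes rose. Of 16, 14 were higher and none lower, with a median of 1.19 and no overlap for 13; 14 were higher without DEX library 4, 14 with the receptor-gene covariate and 11 with the muscle covariate. Mmp8, the neutrophil collagenase gene, took 288, 344, 532, 595 and 478 CPM in DEX. In vehicle it took 102, 81.5, 87.1, 76.3 and 146 CPM, and the lowest DEX library was above the highest vehicle library (log2 fold change 2.19, SE 0.23, adjusted p = 0.00103). Chil3, a chitinase-like gene of maturing myeloid cells, took 858, 1001, 1905, 2070 and 1962 CPM in DEX and 287, 199, 255, 256 and 407 CPM in vehicle, a 5.55-fold difference (log2 fold change 2.47, SE 0.29, adjusted p = 0.0011).

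Calls were made among genes of both early and late granules. Elane, neutrophil elastase of the primary granules made early in neutrophil formation, took 331, 287, 459, 449 and 537 CPM in DEX and 189, 179.8, 183, 193 and 232 CPM in vehicle (log2 fold change 1.08, SE 0.17, adjusted p = 0.00301), and Ctsg, cathepsin G, was higher at 1.29. Among later granule genes, Lcn2, lipocalin 2, was 1640 ± 415 CPM (SD, n = 5) in DEX and 622 ± 183 CPM (SD, n = 5) in vehicle (log2 fold change 1.4, SE 0.24, adjusted p = 0.00423), and Ltf, lactoferrin, was higher at 1.33 with overlapping groups. S100a8, the calprotectin subunit gene, took 849.9 to 1681 CPM in DEX and 453 to 1662 CPM in vehicle and was not called (0.5, adjusted p = 0.332), while its partner S100a9 was called at 1.26. Camp was not called (0.43, adjusted p = 0.272). DEX libraries 1 and 2, which had the highest summed osteoblast level of their group (38150 and 37990 CPM against 8135 to 18350 CPM), had the lowest summed neutrophil level (13010 and 11230 CPM against 18960 to 20720 CPM).

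Of 6 acute phase and metallothionein genes, 5 were higher and 1, the zinc transporter gene Slc39a14, was lower (-0.44); 4 were higher and none lower without DEX library 4 or with the receptor-gene covariate, and 3 and none with the muscle covariate. The call of Slc39a14 was lost in 9 of the 10 fits that left out 1 library, with an adjusted p of 0.0695 (range over the alternatives 0.0231 to 0.223) without DEX library 4, where Saa3, a serum amyloid gene, also lost its call (log2 fold change 2.17 in all 10 libraries, adjusted p = 0.0514 (range over the alternatives 0.000861 to 0.0541) without library 4). Hp, haptoglobin, took 310.1, 354, 479, 552 and 518 CPM in DEX and 142, 119, 124, 133 and 183 CPM in vehicle (log2 fold change 1.66, SE 0.18, adjusted p = 0.0011). Orm1, orosomucoid, was 15.3 ± 4.91 CPM (SD, n = 5) in DEX and 3.77 ± 0.438 CPM (SD, n = 5) in vehicle (log2 fold change 2.02, SE 0.23, adjusted p = 0.0011). The metallothionein genes Mt1 (1.1) and Mt2 (1.73), whose products bind zinc and which glucocorticoids are known to induce, were higher.

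Of 14 monocyte and macrophage genes, 3 were higher and 1 was lower. Ccr2, the chemokine receptor gene of inflammatory monocytes, took 100.3, 91.99, 102, 106 and 106 CPM in DEX and 58.6, 52.1, 51.9, 50.97 and 56.9 CPM in vehicle, each group in a narrow band (log2 fold change 0.9, SE 0.09, adjusted p = 0.000838). Ly6c2, a surface marker of the same cells, was higher at 1.26 (adjusted p = 0.00344). Cd163, a haemoglobin scavenger receptor gene that glucocorticoids are known to induce in macrophages, took 80.7, 97.2, 85.8, 87.9 and 50.99 CPM in DEX and 41.4, 32.7, 51.4, 42.7 and 72.7 CPM in vehicle, with DEX library 5 inside the vehicle range (log2 fold change 0.74, SE 0.21, adjusted p = 0.0357). Cd5l, a macrophage-secreted protein gene, was lower (-1.04, adjusted p = 0.0488), and the other 10 genes were not called. The calls of Cd163 and Cd5l were lost without DEX library 4 and in several other fits that left out 1 library, and those of Ccr2 and Ly6c2 in none; with the muscle covariate 2 of the 14 were higher and none lower.

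Other marrow compartments gave few calls. No erythroid gene of 13 was called by edgeR's quasi-likelihood test, none had an unadjusted p under 0.05, and DESeq2 called none either; the summed level ran from 4082 to 12110 CPM in DEX and from 7226 to 12400 CPM in vehicle, with DEX libraries 3 to 5 at or below 7869 CPM. No megakaryocyte gene of 7 was called by either tool or had an unadjusted p under 0.05. With the receptor-gene covariate, 2 erythroid genes were lower, and 1 megakaryocyte gene was lower and 1 higher. Of 14 endothelial genes, the junction genes Cdh5 (-0.56) and Pecam1 (-0.35) were lower. Of 10 stromal niche genes, the growth factor receptor gene Pdgfra was lower (-0.55). The share of all genes tested that was called lower was 9.08%. Only the call of Cdh5 was made in every fit that left out 1 library, and with the muscle covariate no gene of either list was called. Cxcl12, the chemokine gene that holds blood precursors in the niche, took 0.08 (adjusted p = 0.766).

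Of 10 adipocyte genes, Lep and Cidec were higher, and 2 were higher with the muscle covariate. Lep, leptin, took 10.4, 8.31, 13.3, 15.4 and 19.1 CPM in DEX and 3.12, 2.89, 2.25, 1.395 and 2.12 CPM in vehicle (log2 fold change 2.5, SE 0.27, adjusted p = 0.00103). Cidec, a lipid droplet protein gene, took 7.66 to 21.2 CPM in DEX and 4.04 to 8.62 CPM in vehicle (log2 fold change 1.3, SE 0.3, adjusted p = 0.0143). The lineage marker Adipoq, adiponectin, was not called (-0.3, adjusted p = 0.216).

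Genes known to be induced by glucocorticoids did not rise as a group in these unloaded tibiae. Of 16, 2 were higher, 3 were lower and 11 were not called by edgeR (median -0.10, 10 at an unadjusted p under 0.05). Without DEX library 4 none was higher and 2 were lower by edgeR (9 at an unadjusted p under 0.05). With the receptor-gene covariate 3 were higher and 1 was lower (median 0.21), and with the muscle covariate none was higher and 2 were lower. In loaded tibiae edgeR called Fam107a (2.05), Klf15 (1.38), Zbtb16 (1.02), Map3k6 (0.96), Fkbp5 (0.87) and Cebpd (0.55) higher. Cdkn1a (-0.87) and Ddit4 (-1.09) were called lower there. No interaction was called for any gene of the list. Fkbp5, a receptor co-chaperone gene and a common marker of exposure, took 89.4, 116, 111, 174 and 161 CPM in DEX and 57.3, 47.8, 65.1, 70.4 and 104 CPM in vehicle. DEX library 1 lay below the unnumbered vehicle library, and the other DEX libraries lay above all vehicle libraries (log2 fold change 0.92, SE 0.22, adjusted p = 0.017). Without DEX library 4 the log2 fold change was 0.81, with an adjusted p of 0.0603 (range over the alternatives 0.00154 to 0.164). The call was also lost without vehicle library 1 or 5.

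Cebpd, a transcription factor gene of myeloid and fat cells, took 50.2, 63.00, 77.8, 89.7 and 81.4 CPM in DEX and 38.3, 43.1, 48.00, 48.6 and 54.2 CPM in vehicle; only DEX library 1 lay inside the vehicle range (log2 fold change 0.64, SE 0.15, adjusted p = 0.017). The cell cycle inhibitor gene Cdkn1a (-1.0), the kinase gene Sgk1 (-0.57) and the mTOR inhibitor gene Ddit4 (-1.39) were lower. The calls of Cebpd and Ddit4 were lost without DEX library 3 or 4, that of Cebpd also without vehicle library 1 or 5 and that of Ddit4 without vehicle library 4. Tsc22d3, which encodes the mediator GILZ, took 81.3, 101, 100.5, 109.6 and 88.2 CPM in DEX and 74.8, 67.2, 115, 100.3 and 142 CPM in vehicle, with no separation (-0.06, adjusted p = 0.86). Zbtb16 (-0.04), Per1 (-0.52), Dusp1 (-0.13), Klf9 (-0.22), Nfkbia (-0.35), Errfi1 (-0.07), Pdk4 (-0.94), Map3k6 (0.41), Klf15 (0.55) and Fam107a (0.91) were not called. The receptor gene Nr3c1 (-0.15, adjusted p = 0.392) and the chaperone gene Hsp90ab1 (-0.2, adjusted p = 0.451) were not called, nor were the other 4 of 6 receptor and steroid-handling genes, by edgeR or by DESeq2, and 1 of the 6 had an unadjusted p under 0.05.

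Of 15 circadian clock genes, 4 were lower and 1 was higher (median -0.03). Arntl, which encodes BMAL1, took 16.9, 12.8, 11.5, 14.9 and 15 CPM in DEX and 27.5, 27.9, 49.3, 35.8 and 39.4 CPM in vehicle, without overlap (log2 fold change -1.34, SE 0.17, adjusted p = 0.00161). Npas2, a partner of BMAL1, took 4.35, 3.83, 4.56, 5.53 and 6.995 CPM in DEX and 10.5, 13.2, 21.9, 12.7 and 19.1 CPM in vehicle (log2 fold change -1.61, SE 0.23, adjusted p = 0.0022). Clock, the other partner (-0.45), and the repressor gene Bhlhe41 (-0.82) were lower, and Per3, of the repressing arm, was higher at 0.58 (adjusted p = 0.0301). The other 10 were not called, and with the muscle covariate 2 were lower and none higher. All 5 calls were also made without DEX library 4, that of Per3 was lost without DEX library 1, 2 or 3 or vehicle library 4 or 5, and those of Arntl, Npas2, Clock and Bhlhe41 separated the groups without overlap.

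Skeletal muscle genes had the most negative median of the lists, -2.0, but 6 of 15 were called and the groups overlapped for each of them. Myh4, a fast myosin heavy chain gene, took 2839, 1319, 1144, 805 and 7174 CPM in DEX and 16120, 6363, 15640, 19290 and 4444 CPM in vehicle (log2 fold change -2.22, SE 0.61, adjusted p = 0.0301). DEX library 5 lay above vehicle library 2, and the unnumbered vehicle library lay below DEX library 5. None of the 15 was called by edgeR without DEX library 4, where 11 had an unadjusted p under 0.05, and over all fits that left out 1 library the count ran from 0 to 14, the latter without DEX library 5. Of 8 genes of steroid muscle atrophy, Foxo1 (-0.53) and Bnip3 (-1.07) were lower, Bnip3 not without DEX library 4, and the ubiquitin ligase genes Trim63 (-1.16, adjusted p = 0.19) and Fbxo32 (-0.6, adjusted p = 0.0628) were not called.

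**Figure D4:**
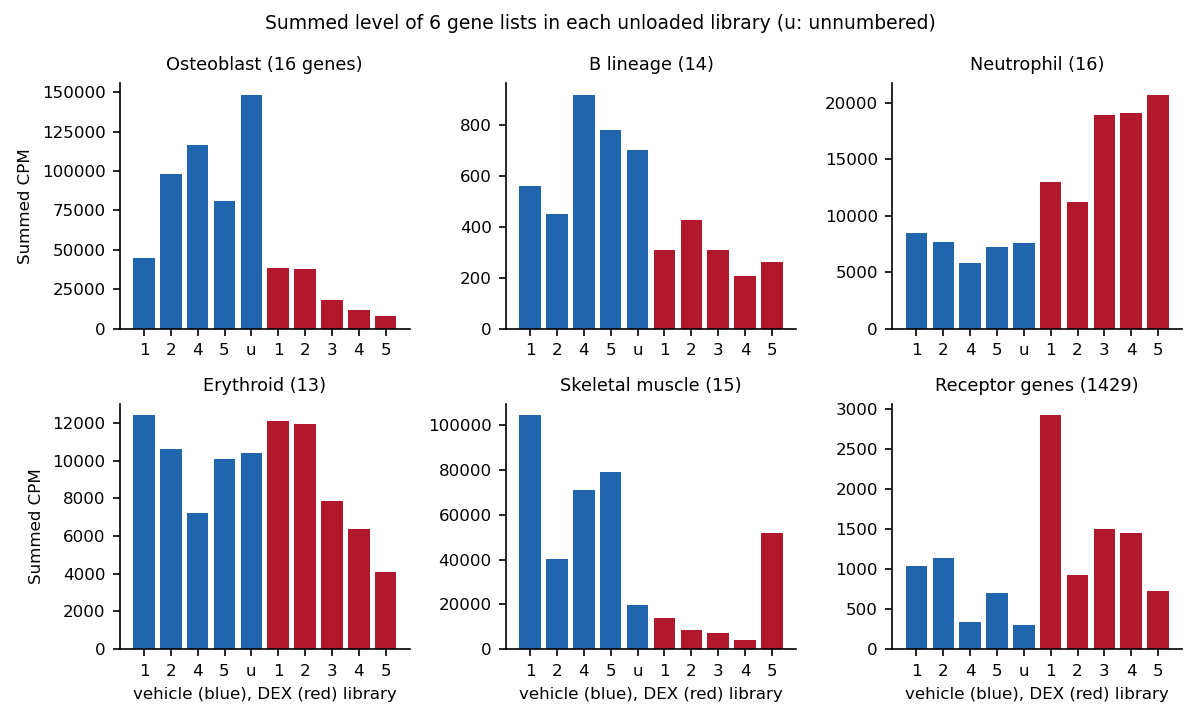
Bars give the summed CPM of a gene list in each vehicle (blue) and DEX (red) library, with u for the unnumbered one; receptor genes are the 1429 odorant and pheromone receptor genes. Osteoblast, B lineage and neutrophil sums separate the groups, whereas DEX library 5 and the unnumbered vehicle library cross the other group in the muscle sum.

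Each of the remaining lists had few genes called. Over all genes tested, 9.08% were called lower and 6.08% higher. Of 16 cell cycle genes, the mitotic genes Plk1 (0.54) and Ccnb1 (0.36) were higher. Of 11 immediate early genes, Ier2 (0.59) and Junb (0.67) were higher, and of 8 chemokine and cytokine genes tested, Tnf (1.21) and Cxcl1 (1.48) were higher. Of 8 prostaglandin genes tested, the receptor gene Ptger2 (1.02) and the cyclooxygenase gene Ptgs1 (0.49) were higher, and Ptgs2 had too few counts to be tested. Of 11 interferon-stimulated genes, Isg15 was lower (-0.87). Of 14 amino acid synthesis genes that ATF4 is known to control, 3 were lower, with Pycr1 at -1.1, and of 16 chaperone and translocon genes of the endoplasmic reticulum, Ssr3 was lower (-0.43) and Sdf2l1 higher (0.83). Of the genes of these lists named so far, Tnf, Ptger2, Pycr1 and Sdf2l1 kept their call in every fit that left out 1 library, and the others lost it in at least 1. With the muscle covariate no gene of these lists was called. Of 79 cytosolic ribosomal protein genes, edgeR called 1 lower (median -0.29, 22 at an unadjusted p under 0.05). With the receptor-gene covariate 41 were lower and 1 higher. DESeq2 called 9 lower, and edgeR called 7 lower with DEX library 5 and the unnumbered vehicle library left out.

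Whether DEX acted differently in unloaded and loaded tibiae was tested as an interaction over all 4 groups. Of 22659 genes, edgeR's quasi-likelihood test called none (lowest adjusted p = 0.0854), 3528 had an unadjusted p under the threshold of 0.05, and DESeq2 called 158. Loaded DEX library 4 had the lowest total of the 20 libraries, 4641437 counts, and its receptor genes summed to 7960 CPM against 974 to 3214 CPM in the other loaded DEX libraries. edgeR also called none with that library left out (unadjusted p under 0.05 for 2208 genes) or with both DEX libraries numbered 4 left out (1802 genes), alternatives chosen after seeing the data. For Bglap the DEX effect was -3.17 in unloaded and -3.47 in loaded tibiae, for Rag1 -2.77 and -2.59, for Mmp8 2.19 and 1.79, and for Myh4 -2.22 and 0.3 on the log2 scale. List medians differed by more than 1.5 between unloaded and loaded tibiae for chondrocyte genes (-0.40 and -3.05), skeletal muscle genes (-2.0 and 0.55) and the 282 receptor genes tested (0.82 and 2.37), and edgeR called no interaction for any gene of these lists. Acan took -1.04 and -3.23 (interaction adjusted p = 0.107), Col2a1 -1.67 and -3.69 (0.266), and Sox9 0.08 and -1.42 (0.153). Sfrp1, a secreted Wnt inhibitor gene, took 0.18 and -1.82 (0.142). None of these 4, chosen after their values were seen, was called by edgeR, and DESeq2 called Acan (adjusted p = 0.00236), Sfrp1 (0.0134) and Sox9 (0.0309) but not Col2a1 (0.2). The 5 unloaded and 5 loaded tibiae of a treatment came from the same animals by the study's design, which this model without an animal term does not use.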

How the data were processed

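RNA was taken from frozen, pulverized tibiae, and libraries were made with a stranded total RNA kit for low input. Per the submitters' processing notes, reads were aligned with STAR 2.7.10a to GRCm38 and counted with RSEM 1.2.28. The authors deposited expected counts per gene, not scaled for depth, which were rounded here to whole numbers.

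The 5 unloaded DEX and 5 unloaded vehicle libraries were fitted alone in R 4.3.3 with edgeR 4.0.16 (filterByExpr, TMM, quasi-likelihood F test, Benjamini-Hochberg adjustment over all genes tested). DESeq2 1.42.0 was an alternative. The interaction was fitted on all 20 libraries. CPM values are scaled by TMM. Totals of 7205231 to 11475108 counts limit precision for low genes. Replicates differed by more than counting error, so p-values measure the spread between libraries of different animals in one experiment. Differences between animals and between library preparations cannot be told apart. Positions come from GRCm38 gene annotation. On simulated counts made from these 10 libraries, the edgeR test found 172 of 200 planted changes of 2 (log2) among 18752 genes. Of 200 planted changes of 1 among 18744 genes it found 106. Unchanged genes that it called numbered 9 and 3. DESeq2 found 181 and 135 of the planted changes and called 38 and 22 unchanged genes, more than edgeR.

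Members and the 39 lists were chosen with earlier results of these data known. Named genes were all glucocorticoid-induced genes, up to 4 called genes with the lowest adjusted p in each other list (filled to 2 by level), the 10 largest non-overlapping falls and rises at 5 CPM or more, and genes the study discussed. Other list genes, such as Col1a1, Col1a2, Sparc, Runx2, Dlx5, Ibsp, Spp1, Serpinh1, Plod1, Tmem38b, Postn, Scx, Col10a1, Piezo2, Ctsk, Acp5, Cd79a, Ighm, Vpreb1, Lcn2, Ltf, S100a8, S100a9, Camp, Slc39a14, Adipoq, Per3, Trim63 and Fbxo32, were added after their values were seen. Symbols beginning Gm or ending Rik were counted and not named. Of 479 list genes, 457 were tested, and the rest had too few counts or no matching symbol.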

Additional observations from a re-analysis of the deposited data

Results flagged for a closer look

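Single libraries stood far from the other 4 of their group in 16 of 342 groups of 5 libraries examined for the genes named above and for library totals, and chance alone flags about 1 in 20 such groups. In vehicle library 4, Postn (2018 CPM), the tendon factor gene Scx (20.1 CPM), the growth factor gene Tgfb3 (128.6 CPM) and the lysyl hydroxylase gene Plod1 (72.4 CPM) were the highest of the group. In the unnumbered vehicle library, Vdr (117.9 CPM) and Elane (232 CPM) were highest and H2-Ab1 (126 CPM) was lowest. Ostn was highest in vehicle library 2 (35.2 CPM), Cidec in vehicle library 5 (8.62 CPM), and Dcn was lowest in vehicle library 1 (506 CPM). Among the DEX libraries, Serpina3n was highest in library 4 (135.5 CPM), Dntt in library 2 (8.97 CPM), Piezo2 in library 1 (14.4 CPM) and Iglv1 in library 5 (9.48 CPM), while Piezo1 (131.7 CPM) and Clock (55.6 CPM) were lowest in library 3.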

How the results depend on the processing

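With 1 library left out at a time, the counts ran from 787 to 1808 genes lower and from 564 to 1327 higher. Lower and higher genes numbered 1041 and 601 with the replicate number as a block, on the 8 libraries with shared numbers, and 1080 and 762 on the same libraries without it. Deviations of same-numbered DEX and vehicle libraries from their group means had correlations of 0.322, -0.152, 0.00475 and 0.0183 for numbers 1, 2, 4 and 5. The labels do not say that the numbers pair animals, and these values alone cannot settle it. An unadjusted p gave 3364 and 2643, an added 2-fold minimum 516 and 394, the muscle covariate, chosen after seeing the data, 303 and 148, and the receptor-gene covariate raised the higher genes to 1813; beyond the alternatives' own construction, the cause was not tested. DESeq2, its size factors, TMM over genes of at least 10 CPM, the other filters, the 4-group model and, chosen after seeing the data, leaving out DEX library 5 with the unnumbered vehicle library kept both counts within 1.5 times. The share of lower genes among calls was 59.9%. It was 49.2% with TMM over genes of at least 10 CPM and 51.5% with the receptor-gene covariate, and 68.1% with no filter, 67.2% with the muscle covariate, 65.2% without DEX library 5 and 64.7% in the 4-group model. The interaction gave 158 genes with DESeq2, 3528 at an unadjusted p, and 0 without either DEX library 4, without both or with the block. No gene named above that was called changed direction in any alternative. Of 137 called genes among those chosen by rule or named above, 52 kept their call in every alternative and 91 in every fit that left out 1 library. Low counts limit genes near 1 CPM.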

Other observations

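Genes of the respiratory chain, which passes electrons to oxygen in mitochondria, were called lower in part, in families that no list held. These families were picked by symbol after their values were seen, so their counts are descriptions. Of 36 nuclear genes for complex I subunits, 23 were lower and none higher (median log2 fold change -0.75), and of 15 genes of the mitochondrial genome, 9 were lower (median -1.02). Of 15 nuclear cytochrome oxidase subunit genes 7 were lower (median -0.86), and of 17 ATP synthase genes 5 were lower (median -0.71). The calls moved with single libraries and with the muscle sum given above: without DEX library 4, the counts lower were 2, 0, 2 and 0 in that order, and with the muscle covariate 0 in each. With the receptor-gene covariate they were 28, 9, 13 and 13. The part of muscle tissue in these differences was not tested.

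Collagen chains taken over all types gave 19 lower and none higher of 43 tested (median -0.67), with 15 lower without DEX library 4, 10 with the receptor-gene covariate and 12 with the muscle covariate.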
